A study of Mus musculus with 8 samples.

Results

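Noradrenaline and serotonin reach the medial prefrontal cortex on axons whose cell bodies lie in the brainstem, so the cortex itself mainly contributes the receptors and the degrading enzymes. Alpha-2 adrenergic receptors and the serotonin receptors of the 5-HT1 family couple to inhibitory Gi proteins, alpha-1 and 5-HT2 receptors couple to Gq, beta receptors couple to Gs, and monoamine oxidase breaks down the transmitters after reuptake. The 9 genes described here were chosen by name from these classes: the adrenergic receptor genes Adra2c, Adra2a, Adra1d and Adrb1, the serotonin receptor genes Htr1a, Htr1b, Htr2a and Htr2c, and the monoamine oxidase gene Maoa. They were read out of a platform with 45281 probes and 19057 genes that have a named probe. Of the 9 genes, 6 have at least 1 probe under their symbol in the platform annotation used here, 12 probes in all, and for Adra2a, Adra1d and Adrb1 no probe is named here, so these 3 were not analysed.

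The arrays held RNA from 1 mm punches taken from the medial prefrontal cortex of both hemispheres in male mice aged 10 weeks; no strain is given. The IMO group (4 arrays, replicates 1 to 4) had been immobilized for 2 h and was examined 6 days later at rest, and the No stress group (4 arrays, replicates 5 to 8) had not been immobilized. Whether the arrays stand for separate animals is not said in the labels, and the p-values below then reflect only how far these samples spread, which may be technical. Values are log2 signal from the deposited value table, and a probe was called detected on an array when its deposited detection p was under 0.05. A second deposited table carries other signals under the same sample names, and it remains unsettled which of the tables belongs to the labelled arrays.

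Between 20012 and 21038 probes were detected per array, with detection reached at a log2 signal of 6.05 to 6.13. An earlier account of these data had singled out 2 arrays, and they stood apart here too. Prkcd and Zic1, genes abundant in forebrain regions beneath the cortex, had log2 signals of 10.1 and 11.86 in IMO replicate 1 and of 10.3 and 11.63 in No stress replicate 6. The other 6 arrays lay between 7.37 and 7.69 for Prkcd and between 8.81 and 9.7 for Zic1. Of the other tested subcortical markers, Ppp1r1b, Tac1, Penk and Drd2 were also above the other 6 in both arrays, Drd2 barely so in IMO replicate 1. Rgs9 lay within their range in both (9.44 and 9.46, against 8.69 to 9.51). Slc17a6 was above it only in No stress replicate 6, and Tcf7l2 only in IMO replicate 1. Cux2, an upper-layer cortical gene, had 7.85 in IMO replicate 1 and 8.04 in No stress replicate 6, against 9.15 to 9.8 elsewhere. Other upper-layer markers did not all share this. In IMO replicate 1 Cux1 (9.03) and Inhba (9.37) were highest of all arrays, and Lamp5 (11.67) was just under the other 6. Rorb (7.41) and Rasgrf2 (6.67) lay within their range. In No stress replicate 6 Cux1, Rasgrf2 and Lamp5 were lowest (8.53, 6.22 and 11.47), and Rorb and Inhba were not. Each group holds 1 of the 2 arrays that stood apart, and results for the tested receptor probes are given with and without the pair. Cortical deep-layer markers were present, with 7 of 8 tested. Fezf2 was low in IMO replicate 1 alone (9.7, against 11.01 to 11.88 in the other 6). Ccn2 was high in both arrays that stood apart (10.81 and 10.84, against 9.48 to 9.89). In both, Etv1 lay below the other 6, Bcl11b above them, and Tle4, Crym and Tbr1 within their range. Of 7 named marker genes of monoaminergic neurons 6 (Tph2, Dbh, Slc6a2, Slc6a3, Slc6a4 and Slc18a2) were detected on no array and Th on 1.

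Which of the receptor genes were detectable at all was the first question. Adra2c (Entrez gene 11553) and Htr1a (Entrez gene 15550) were detected, on all 8 arrays, and the other 4 genes with a probe were at or near background. Of the 12 probes, 3 were detected on at least 4 arrays and entered the fit: 2 of the 3 Adra2c probes and the single Htr1a probe. Of the 9 probes left out, 8 were detected on no array, with log2 signals between 5.1 and 6.08. A probe at background gives no measure of its transcript, so for these genes a difference between groups was not detectable here, which is not evidence that the transcript is absent.

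**Figure D1:**
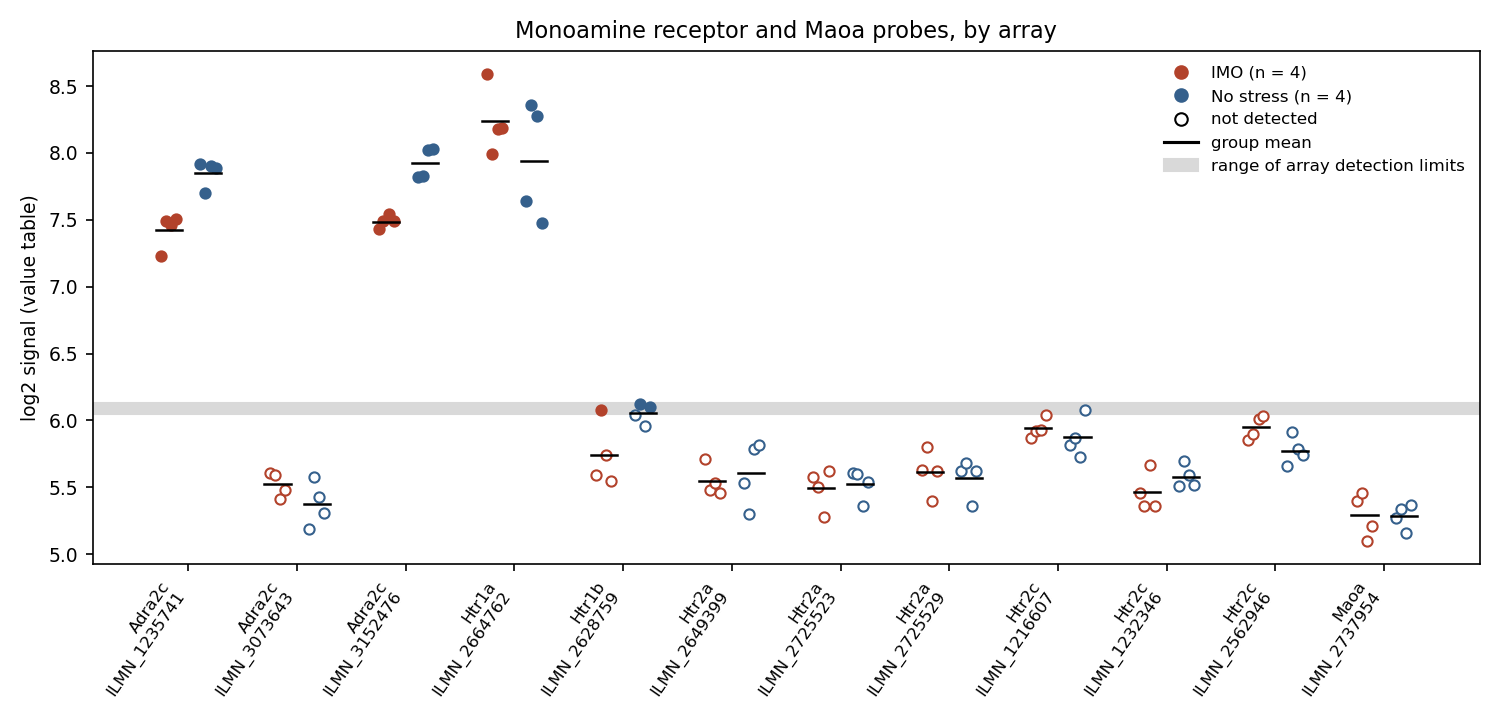
Log2 signal of the 12 probes on each array, with IMO arrays left of No stress arrays for each probe, filled points where the probe was detected, black lines at the group means and a grey band over the detection limits of the 8 arrays (6.05 to 6.13). At both detected Adra2c probes the 4 IMO points lie below the 4 No stress points, and most other probes lie under the band; heights are not comparable between probes.

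Adra2c encodes the alpha-2C adrenergic receptor, a Gi-coupled receptor that acts both on noradrenaline terminals and on target neurons. Both of its detected probes gave lower signal in IMO arrays, by about the same amount. Probe ILMN_3152476 had log2 signals of 7.43, 7.49, 7.54 and 7.49 in IMO replicates 1 to 4, against 7.82, 7.83, 8.02 and 8.03 in No stress replicates 5 to 8. Every IMO value lay below every No stress value, and the IMO arrays were closer together than the No stress arrays. The means were 7.49 ± 0.05 in IMO and 7.93 ± 0.12 in No stress arrays (SD, n = 4 each). This is a log2 difference of -0.44 (standard error 0.085, 95% interval -0.63 to -0.25), or a change of -26.2%.

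Probe ILMN_1235741 measured the same transcript (NM_007418) with log2 signals of 7.23, 7.49, 7.46 and 7.51 in IMO replicates 1 to 4, against 7.92, 7.7, 7.9 and 7.89 in No stress replicates 5 to 8. Again the groups did not overlap, and in each group the lowest value was that of the array with high Prkcd and Zic1. The means were 7.42 ± 0.13 in IMO and 7.85 ± 0.1 in No stress arrays (SD, n = 4 each), a log2 difference of -0.43 (standard error 0.095, 95% interval -0.64 to -0.22), or a change of -25.5%. The third Adra2c probe, ILMN_3073643, was detected on no array, with log2 signals from 5.41 to 5.61 in IMO and from 5.19 to 5.58 in No stress arrays, and says nothing about the gene.

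Neither Adra2c difference passed the test over all probes. Unadjusted limma p-values were 0.000371 for ILMN_3152476 and 0.001 for ILMN_1235741, and the Benjamini-Hochberg adjusted p over the 20531 probes tested was 0.236 and 0.254. The two-sided exact permutation p was 0.0286 for each probe, the smallest that 4 against 4 arrays can give. By limma 0 of the 3 tested probes had an adjusted p under 0.05, as did 0% of all probes tested. An unadjusted limma p under 0.05 with lower signal in IMO was reached by 2 of the 3, both from Adra2c, where 5.44% of all probes tested did so. The groups did not overlap, with IMO lower, in the same 2 probes, where 3.56% of all probes tested had this form. An unadjusted limma p as small as that of ILMN_3152476 was found at 32 probes (0.156%) and one as small as that of ILMN_1235741 at 79 probes (0.385%). The pair stand for 1 gene on the same RNA and are not separate observations.

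The Adra2c difference was as large without the 2 arrays that stood apart. With 3 arrays in each group, ILMN_3152476 averaged 7.51 ± 0.03 in IMO and 7.96 ± 0.12 in No stress arrays (SD, n = 3 each), a log2 difference of -0.45 (standard error 0.099.) For ILMN_1235741 the means were 7.49 ± 0.03 in IMO and 7.9 ± 0.01 in No stress arrays (SD, n = 3 each), a difference of -0.41 (standard error 0.0883.) The limma adjusted p was 0.263 for both. Both stayed without overlap with IMO lower, which was fixed beforehand, since leaving out arrays cannot make separate groups overlap. Of all probes tested 8.93% had this form with these 6 arrays. In the second deposited table the same probes had differences of -0.25 and -0.13, with standard errors of 0.144 and 0.147, overlapping groups and a limma adjusted p of 0.981 for each. Of the 3 tested receptor probes 0 had an unadjusted limma p under 0.05 in that table, where 2.76% of all probes did, and 0 were without overlap, where 2.35% were.

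Marker lists of other cell types are given beside Adra2c as the mean of their tested genes, each centred on its own mean over the arrays. In all 10 lists with a tested gene the ranges of the groups overlapped. Single genes could still be without overlap. These were P2ry12 (-0.425), Aif1 (-0.186), Cldn5 (-0.436) and Glul (-0.295) with IMO lower, and Inhba (1.077) with IMO higher. Of all probes tested 3.56% and 3.36% had these forms. None of these genes had a limma adjusted p under 0.05. Blood markers (4 of 4 tested, each with a lower mean in IMO) ran from -0.74 to 0.33 in IMO and from -0.03 to 1.02 in No stress arrays. Endothelial and mural markers (8 of 9 tested, 7 with a lower mean in IMO, Kdr detected on no array) ran from -0.32 to 0.19 in IMO and from -0.03 to 0.27 in No stress arrays. Microglia markers (8 of 8 tested, 5 with a lower mean in IMO) ran from -0.09 to -0.01 in IMO and from -0.08 to 0.17 in No stress arrays. Choroid plexus markers (5 of 11 tested, 4 with a lower mean in IMO, Folr1 detected on no array) ran from -0.65 to 0.09 in IMO and from -0.26 to 0.51 in No stress arrays. Myelin markers (8 of 9 tested, each with a lower mean in IMO) ran from -0.72 to 1.01 in IMO and from -0.41 to 1.17 in No stress arrays, with the highest of each group in the array of high Prkcd and Zic1. Upper-layer cortical markers (6 of 8 tested, 5 with a higher mean in IMO, Calb1 detected on no array) ran from 0.06 to 0.15 in IMO and from -0.47 to 0.14 in No stress arrays. Their differences were unequal: 1.077 for Inhba, 0.363 for Rorb, 0.114 for Cux1, 0.052 for Lamp5, 0.002 for Rasgrf2 and -0.226 for Cux2. In the other 4 lists (deep-layer, interneuron, subcortical and astrocyte markers) the group means differed by -0.11 to -0.02. The part of these lists in the Adra2c values was not tested. In a punch, fewer cells of a type and less RNA per cell cannot be told apart.

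Htr1a encodes the 5-HT1A receptor, a Gi-coupled receptor found on cortical pyramidal cells and interneurons and, as an autoreceptor, on serotonin neurons. Its probe, ILMN_2664762, had log2 signals of 8.59, 7.99, 8.18 and 8.19 in IMO replicates 1 to 4, against 7.64, 8.36, 8.28 and 7.48 in No stress replicates 5 to 8. The groups overlapped: the No stress arrays split into 2 high and 2 low values, and the high ones lay within the IMO range. The means were 8.24 ± 0.25 in IMO and 7.94 ± 0.44 in No stress arrays (SD, n = 4 each), a log2 difference of 0.30 (standard error 0.205, 95% interval -0.16 to 0.75.) The limma adjusted p was 0.65 and the two-sided exact permutation p 0.314, so the difference was not larger than the spread between arrays.

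Single arrays carried much of the Htr1a value. It was 0.147 without No stress replicate 8, 0.18 without IMO replicate 1 and 0.197 without No stress replicate 5. Without both arrays of high Prkcd and Zic1 the means were 8.12 ± 0.11 in IMO and 7.8 ± 0.42 in No stress arrays (SD, n = 3 each), a difference of 0.32 with a limma adjusted p of 0.536. In the second deposited table the sign was turned, with a log2 difference of -0.54, a standard error of 0.313 and a limma adjusted p of 0.981.

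**Figure D2:**
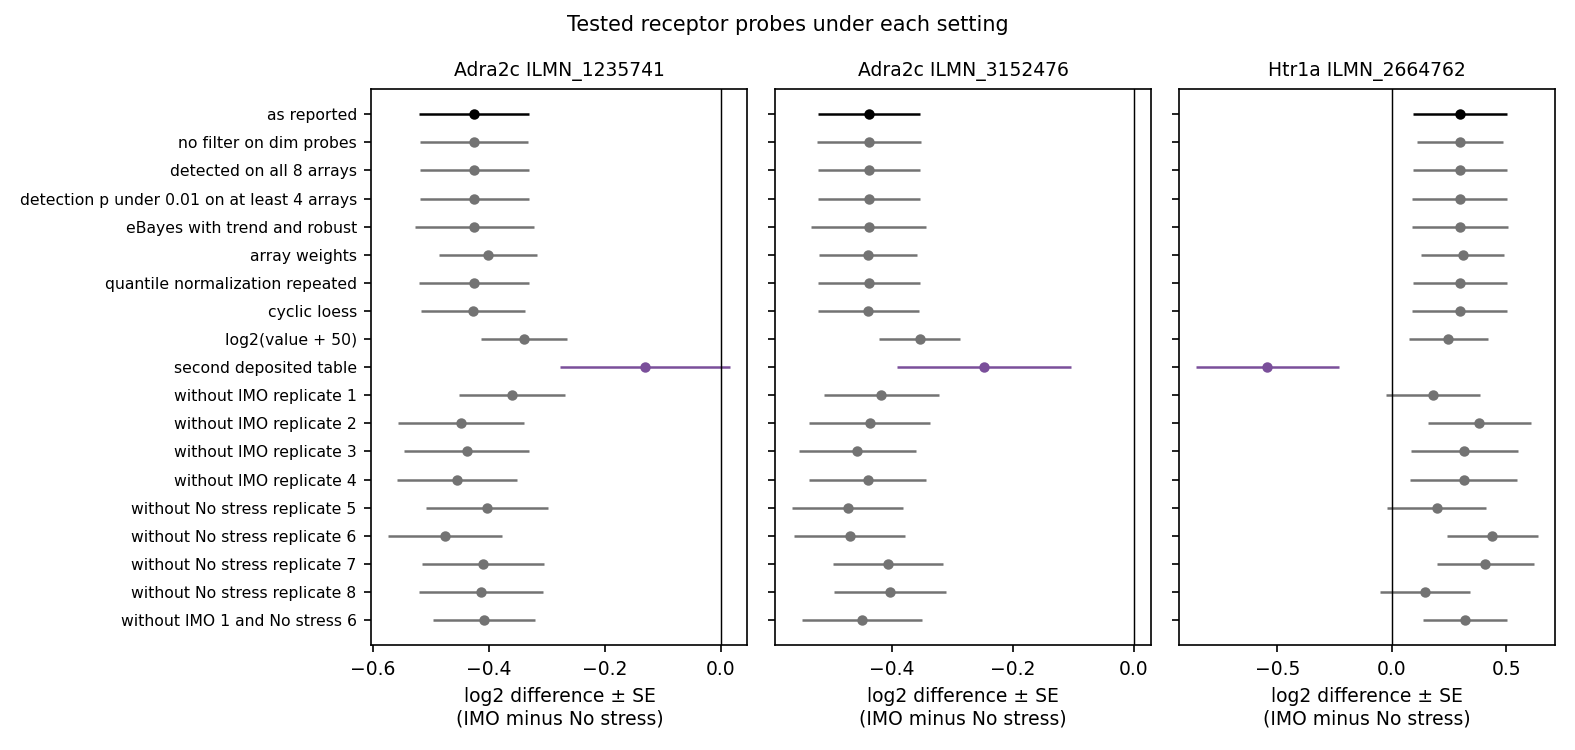
Log2 difference, IMO minus No stress, with its standard error for each tested receptor probe (panels) under each setting (rows), with the reported fit in black and the second deposited table in purple. Within the value table both Adra2c probes stay between -0.48 and -0.34 and Htr1a between 0.15 and 0.44, while the second table gives -0.13, -0.25 and -0.54.

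Htr1b encodes the 5-HT1B receptor, a Gi-coupled receptor on axon terminals, and it came closest to the detection rule without meeting it. Its single probe, ILMN_2628759, was detected on 1 IMO array (replicate 2) and on 2 No stress arrays (replicates 6 and 8). The log2 signals were 5.59, 6.08, 5.74 and 5.55 in IMO replicates 1 to 4, against 6.04, 6.12, 5.96 and 6.1 in No stress replicates 5 to 8. The groups overlapped through IMO replicate 2, and all but 3 values lay under the detection limit. The mean difference was -0.32; in a fit that kept every probe on the platform the unadjusted limma p was 0.0136 and the adjusted p 0.496.

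The Gq-coupled serotonin receptors were not detected. For Htr2a, the 5-HT2A receptor of cortical pyramidal cells, 3 probes lay between 5.28 and 5.82 on all arrays, with differences of -0.07, -0.04 and 0.04. For Htr2c, the 5-HT2C receptor, which is made in large amounts by choroid plexus, 3 probes lay between 5.36 and 6.08. The probe with the highest of these, ILMN_1216607, had a lowest detection p of 0.0513 and log2 signals of 5.87, 5.92, 5.93 and 6.04 in IMO replicates 1 to 4, against 5.82, 5.87, 5.73 and 6.08 in No stress replicates 5 to 8. Ttr, the leading choroid plexus gene, ranged from 6.32 to 11.57 over the same arrays and was highest in No stress replicate 7, where all 3 Htr2c probes were undetected.

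The degrading enzyme was measured on one side only. Maoa, the oxidase that prefers serotonin and noradrenaline, had 1 probe (ILMN_2737954), detected on no array, with log2 signals of 5.4, 5.46, 5.1 and 5.21 in IMO replicates 1 to 4, against 5.27, 5.34, 5.16 and 5.37 in No stress replicates 5 to 8. Its difference between groups was 0.01, at background. Maob, the isoenzyme of astrocytes and serotonin neurons, was detected on all arrays with its brightest probe, with log2 means of 8.54 ± 0.14 in IMO and 8.58 ± 0.24 in No stress arrays (SD, n = 4 each). Its difference was -0.03 with a 95% interval of -0.32 to 0.25 and a limma adjusted p of 0.952.

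Further genes of the monoamine system had differences of either sign. A list of 53 further genes (other adrenergic, serotonin and dopamine receptors, synthesis, transport and degradation, G proteins, kinases and arrestins) had 46 named on the array and 24 tested, each read at its brightest tested probe. By limma 0 of the 24 had an adjusted p under 0.05, and at an unadjusted p under 0.05 there were 0 higher and 1 lower in IMO, where 5.19% and 5.44% of all probes tested were. Mean signal was higher in IMO for 9 and lower for 15, and the median log2 difference was -0.03 against 0.001 over all probes tested. All 8 tested genes of synthesis, transport and degradation were lower in IMO (-0.32 to -0.03, median -0.09), while 7 of 11 signalling partners were higher and 4 lower. The -0.32 was that of Pnmt, which was kept through its No stress arrays alone, so its groups had to differ. Without the 2 arrays that stood apart Maob was at 0.01 and Pts at 0, and the remaining genes of synthesis, transport and degradation ran from -0.28 to -0.03. Among the 3 other serotonin receptors tested the differences ran from -0.08 to 0.36, with Htr1f at 0.36 (standard error 0.378) and Htr4 at -0.08. Htr1f was at 0.24 without the 2 arrays that stood apart. The Htr4 probe was near background, with log2 signals of 5.88 to 6.19, and was detected on 1 IMO array and 3 No stress arrays. The dopamine receptors Drd2 and Drd1 had differences of -0.16 and -0.06, which were 0.06 and 0.17 without the 2 arrays that stood apart.

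The 1 gene of that list with an unadjusted limma p under 0.05 was Pnmt, which encodes the enzyme that turns noradrenaline into adrenaline. It was detected on 0 IMO and 4 No stress arrays, with log2 signals from 5.88 to 6 in IMO and from 6.18 to 6.39 in No stress arrays. The probe was kept because of its No stress arrays alone, so its groups had to differ, and its difference of -0.32 had a limma adjusted p of 0.333. In the same list Aldh2, an aldehyde dehydrogenase downstream of monoamine oxidase, had a difference of -0.12 and Ddc, the decarboxylase of both transmitter pathways, one of -0.12 at its brightest probe.

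Of 14 signalling partners 11 were tested, with 24 probes whose differences ran from -0.24 to 0.31, 16 of them positive and 8 negative. Gnaz, a Gi-class subunit to which alpha-2 receptors can couple, had log2 means of 10.92 ± 0.22 in IMO and 11.15 ± 0.13 in No stress arrays (SD, n = 4 each), a difference of -0.23 with a limma adjusted p of 0.532. Arrb1, a beta-arrestin that uncouples activated receptors, had 5 tested probes with differences from -0.17, at the brightest, to 0.16, 3 positive and 2 negative, and the lowest limma adjusted p was 0.633. Gnaq, the Gq subunit, had 3 tested probes with differences from 0.11, at the brightest, to 0.31, and Gnao1, the Go subunit, had 2 at -0.24 and -0.02, the second the brighter. By limma 2 Gnaq probes and 1 Gnao1 probe of the 24 had an unadjusted p under 0.05, where 10.6% of all probes tested did so in either direction. The lowest limma adjusted p of the 24 was 0.417. The Gi subunits Gnai1 and Gnai2 had 1 and 2 tested probes, with differences from 0.04 to 0.09.

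**Figure D3:**
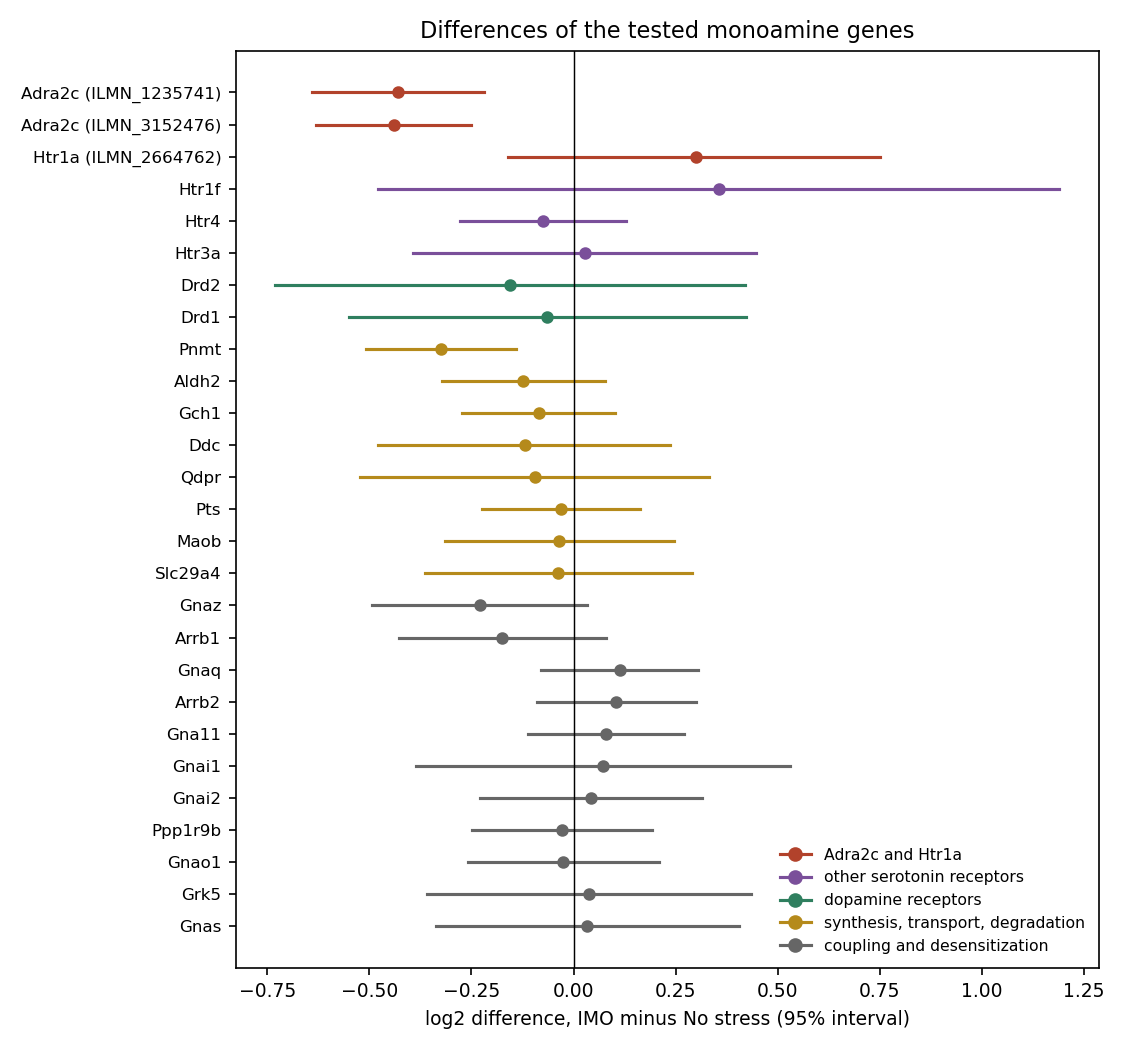
Log2 difference, IMO minus No stress, with its 95% interval for the 3 tested receptor probes and for the brightest tested probe of 24 other monoamine genes, coloured by list. The intervals of both Adra2c probes do not include 0 before adjustment for the number of probes tested, and that of Htr1a runs from -0.16 to 0.75. Pnmt was kept through its No stress arrays alone, so its interval is no like result.

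Several serotonin receptor probes were highest in the pair of arrays with high Prkcd and Zic1. These were chosen after their values were seen. Htr5b, a serotonin receptor that is functional in rodents, had a log2 signal of 7.54 in IMO replicate 1 and 7.04 in No stress replicate 6, against 5.67 to 6.14 in the other 6 arrays. Htr1f, the Gi-coupled 5-HT1F receptor, had 8.74 and 8.05 in those arrays at probe ILMN_2933261, against 6.56 to 7.51 elsewhere. Its other probe had 7.13 and 6.82, against 6.06 to 6.37, and Htr1d, the 5-HT1D receptor, had 6.67 and 6.73, against 5.96 to 6.3. In all 4 probes the same pair of arrays gave the highest values, 1 from each group. Htr1a was likewise highest in IMO replicate 1 within its group and in No stress replicate 6 within the other, but by smaller steps, and at neither detected Adra2c probe was either array the highest of its group. Htr3a, detected on every array, went the other way. It was lowest of its group in both arrays, at 6.53 and 6.22, against 6.36 to 7.19 elsewhere. The Htr5b probe was detected on 2 IMO arrays and 1 No stress array, and the Htr1d probe on 1 IMO array and 2 No stress arrays. Neither was tested, and their lower values are near background.

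**Figure D4:**
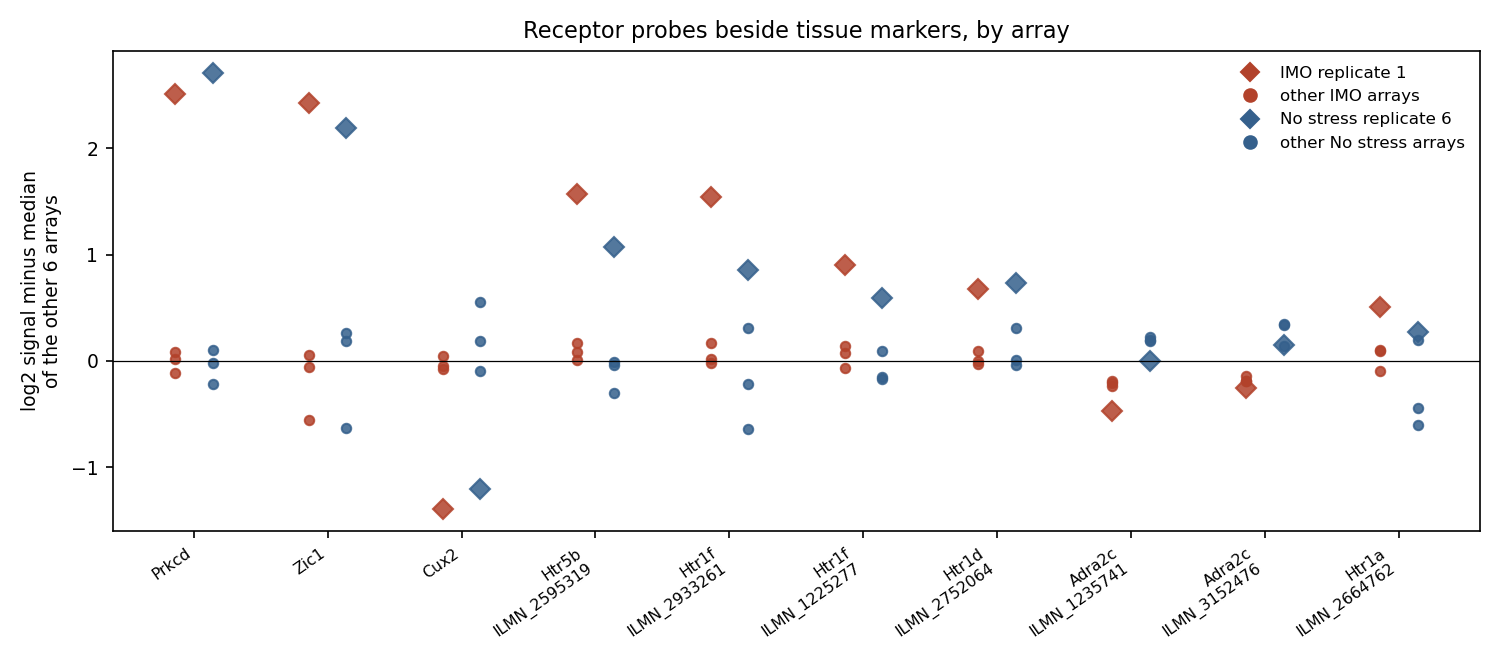
Log2 signal of each array minus the median of the 6 arrays other than IMO replicate 1 and No stress replicate 6 (diamonds), with IMO arrays left of No stress arrays, for the tissue markers Prkcd, Zic1 and Cux2, the serotonin receptors Htr5b, Htr1f and Htr1d, and the tested Adra2c and Htr1a probes. The diamonds stand above the circles for Prkcd, Zic1 and the probes of Htr5b, Htr1f and Htr1d and below them for Cux2, while at neither Adra2c probe is a diamond the highest of its group. Other subcortical markers did not all share the form of Prkcd and Zic1, nor other upper-layer markers that of Cux2. The Htr5b and Htr1d probes were detected on fewer than 4 arrays and were not tested.

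Across the 8 arrays, after each group's mean was taken off, the named genes most like Adra2c were Nrl (Pearson r 0.991), Lin7b (0.989) and Ddit4l (0.987) for ILMN_3152476, and Marchf1 (0.989), Kcnu1 (0.987) and Smad2 (0.983) for ILMN_1235741. For Htr1a they were Ppp2r2d (0.989), Ufl1 (0.984) and Ubr2 (0.981). These are the highest of 11017 genes over 8 arrays, given as a description, and the Adra2c probes share none of their 3.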

How the data were processed

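Biotin-labelled cRNA (Ambion MessageAmp, from RNeasy total RNA) was hybridized to Illumina bead arrays, per the labels' protocols. The authors deposited 2 tables of signal intensity on a linear scale, and in the second also detection p-values per probe and array; what was done between scanning and these tables is not given in the sources at hand. Sorted columns of either table are nearly equal, so no further normalization was applied. Deposited detection p-values never rose with signal in the value table (0% of steps) and rose at 33.4% to 36.8% of steps in the second, so the value table was analysed.

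Probes detected (p under 0.05) on at least 4 of 8 arrays were fitted on log2 signal, without pseudocount, with limma 3.58.1 (lmFit, eBayes) in R 4.3.3, and p-values were adjusted by Benjamini-Hochberg over 20531 probes. The fit was tested on simulated data. Exact permutation tests used SciPy 1.17.1. The number of arrays limits the precision (median standard error 0.108). Groups and replicate numbers came from the titles. Of the probes, 34885 have 1 symbol, 18 several, and 10378 are unnamed here. No genome was used, and no probe sequences were at hand.

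The genes and lists were chosen with earlier results of these data known. Named were every listed receptor and oxidase gene, and of the other lists the genes with an unadjusted p under 0.05 or otherwise the 2 of smallest p. Maob, Pts, Aldh2, Ddc, Gnai1, Gnai2, Gnaq, Gnao1, Htr5b and Htr1d were named after their values were seen. Likeness left out symbols of predicted and unnamed transcripts. Of the marker lists, the 2 genes of widest range in the subcortical list and 1 in the choroid plexus list are given. The other tested subcortical genes and all tested deep-layer genes are given beside them. P2ry12, Aif1, Cldn5 and Glul were named after their values were seen. In the upper-layer list Cux2 had the second widest range (1.94, after 2.01 for Inhba), and the other tested genes are given beside it. Alternatives covered the probe filter, the variance model, array weights, repeated normalization, cyclic loess, an offset of 50, the second table, averaging the probes of a gene and omitting arrays.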

Additional observations from a re-analysis of the deposited data

Results flagged for a closer look

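In 26 groups of 4 values (the 12 probes of the listed genes and Pnmt, in each group), 1 value stood far from the other 3 of its group. It was Adra2c probe ILMN_1235741 in No stress replicate 6, whose log2 signal was 7.7 where the other No stress arrays had 7.89 to 7.92. The gap was 0.87 of the group's range, past Dixon's 95% limit for 4 values. This array is 1 of the pair with high Prkcd and Zic1, and it still lay above all 4 IMO values. Chance alone gives such a value in about 1 group in 20.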

How the results depend on the processing

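Within the value table, 17 alternative fits each left both Adra2c probes negative (-0.48 to -0.34 and -0.47 to -0.35) with an unadjusted limma p of at most 0.00364 and an adjusted p of 0.114 to 0.647 for ILMN_1235741 and 0.0994 to 0.647 for ILMN_3152476, the lowest of each with array weights. Htr1a stayed positive (0.15 to 0.44) with adjusted limma p of 0.442 to 0.87. The fits that changed only the probe filter or the eBayes variance model could not move these differences, and repeated quantile normalization left them as they were. With single arrays left out the differences ran from -0.475 to -0.36 and from -0.473 to -0.403 for the Adra2c probes and from 0.147 to 0.44 for Htr1a. The count of Adra2c and Htr1a probes at an unadjusted limma p under 0.05 was 2 in each of these 8 fits, and the number of all probes called was 0. The count without overlap was also 2, but it could not fall, because leaving out an array cannot make separate groups overlap. Shares over all probes were not counted for these fits. Groups without overlap are commoner with fewer arrays: with IMO lower, 3.56% of probes with all 8 arrays and 8.93% with 6. For the other monoamine genes the count at an unadjusted p under 0.05 ran from 1 to 2, the second gene being Gnaz without IMO replicate 4 (-0.33).

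In the second deposited table Htr1a turned to -0.54, and the counts of receptor probes at an unadjusted p under 0.05 and without overlap were 0 each, as was that of the other monoamine genes. Under that table an unadjusted p under 0.05 was reached by 2.76% of all probes. The cause was not tested. Keeping all probes raised the probes of the listed genes in the fit from 3 to 12, with 3 at an unadjusted p under 0.05, the added one being Htr1b. The share over all probes was not counted for that fit, so the 3 are a description only. With detection on all 8 arrays, or at a detection p of 0.01, the count of other monoamine genes was 0, because Pnmt was no longer tested. Without IMO replicate 1 and No stress replicate 6 together 1 probe of the whole platform was called, none of it from the listed genes. No paired analysis was possible because the groups share no replicate numbers. Signals near 6.1 are at background, which compresses differences of dim probes.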
